A study of Mus musculus with 8 samples.

Results

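Transcripts of 9 chemokine ligand genes were followed in antigen-experienced helper T cells: the CC ligands Ccl1, Ccl3, Ccl4, Ccl5 and Ccl22, the CXC ligands Cxcl1, Cxcl10 and Cxcl16, and the XC ligand Xcl1. They were taken by gene symbol from a list of chemokine ligands of helper cells, chosen with earlier results of these data known. All 9 of the 9 had 1 line each in a table of 11841 symbols. The cells were CD4+ and CD44+, came from lymph nodes that drain the skin of BALB/cAJcl mice, and all of them had been exposed to PMA plus ionomycin for 2 h. PMA and ionomycin act below the T cell receptor, on protein kinase C and calcium, and bring out cytokine and chemokine transcription. Mice were wild type (WT), T-bet-/- (called T-bet-null), STAT6-/- (STAT6-null) or T-bet-/- STAT6-/- (double-null), with 2 libraries per genotype and 8 in all. The exons that the alleles lack, the number of animals behind a library, and their age and sex were not stated.

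Chemokines are small secreted proteins that guide cells along gradients by binding G protein-coupled receptors. T-bet is the transcription factor that sets up Th1 cells, and STAT6 is activated below the receptors for IL-4 and IL-13 and sets up Th2 cells. Helper cells release ligands of their own: Ccl3, Ccl4, Ccl5 and Xcl1 are known from Th1 and cytotoxic cells, and Ccl1 and Ccl22 from type 2 and regulatory cells and, for Ccl22, from dendritic cells. Cxcl10, Cxcl16 and Cxcl1 are better known from myeloid and tissue cells, where interferon and inflammatory signals induce them.

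Levels are in FPKM, fragments per kilobase of transcript scaled to the mapped fragments of the library, so they can be compared between genes. Differences are on the log2(FPKM + 1) scale, with the standard error (SE), and come from limma with Benjamini-Hochberg adjustment over 10281 genes. An adjusted p under 0.05 counts as a call. A mean stands with its SD (n = 2 libraries). Nothing in the labels places the libraries of a genotype in separate animals, so a p measures the spread between these libraries, which may be technical. An exact permutation test of 2 libraries against 2 cannot go below p = 0.333, so none is reported for single genes. The table holds no value under 0.1 FPKM. Tbx21, which encodes T-bet, was at 1.44 to 2.49 FPKM in the 4 libraries labelled T-bet-/- and at 30.8 to 102 in the others. Stat6 was at 26.9 to 31.6 FPKM in the 4 libraries labelled STAT6-/- and at 88.8 to 90.9 in the others, so each targeted transcript was lowest where its loss is labelled. The helper cell markers Cd3e, Cd4 and Cd44 stood at 228 to 376, 88.1 to 208 and 251 to 442 FPKM over the 8 libraries. With Cd3d and Cd3g added, 4 of 5 were called lower than WT in both genotypes without T-bet. In STAT6-null cells 3 were called lower, and Cd44 alone was called higher in each mutant. Beside this, 36.1% to 36.7% of all genes were called lower. Cd4 fell by 1.02 in double-null cells, by 0.77 with T-bet lost alone and by 0.66 with STAT6 lost alone. The WT libraries stood apart from all mutants, with Pearson r of 0.934 to 0.954 against mutant libraries, beside 0.983 to 0.989 between mutant genotypes and 0.997 to 0.998 within genotypes (across genes, which are not independent replicates). No label gives a batch, so in the comparisons with WT the genotype cannot be told apart from how WT was prepared. The 3 comparisons with WT share the same 2 WT libraries.

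The promoter table of RefSeq (GRCm38.p6, the assembly of mm10) held 6 of the 9 genes; Ccl4, Ccl5 and Cxcl16 had no entry. The 250 reference bases before the start are shown, 5′ to 3′ on the gene's strand, for Ccl1, Ccl3 and Xcl1, which were highest in STAT6-null cells, and for Cxcl10, which was highest in WT. Capitals mark matches, on either strand, to the letters of a T-box core (GGTGTGA), a STAT6 site (TTC, any 4 bases, GAA), a gamma-activated site (TTC, any 3 bases, GAA), an interferon-stimulated response element (GAAA, any 2 bases, GAAA), an AP-1 site (TGANTCA) and a kappa B site (GGG, any 3 bases, TTCC). The sequence is that of C57BL/6J mice, not of the BALB/c strain used. 
Ccl1, chr11:82179813-82180062, minus strand: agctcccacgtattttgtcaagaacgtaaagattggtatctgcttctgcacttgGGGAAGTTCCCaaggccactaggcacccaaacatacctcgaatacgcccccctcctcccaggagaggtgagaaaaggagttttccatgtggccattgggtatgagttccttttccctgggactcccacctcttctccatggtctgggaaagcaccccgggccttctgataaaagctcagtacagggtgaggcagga
Ccl3, chr11:83649379-83649628, minus strand: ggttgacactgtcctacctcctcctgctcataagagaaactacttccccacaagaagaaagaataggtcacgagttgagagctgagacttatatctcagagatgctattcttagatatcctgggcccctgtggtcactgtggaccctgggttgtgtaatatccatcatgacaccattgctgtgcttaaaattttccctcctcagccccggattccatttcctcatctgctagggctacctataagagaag
Xcl1, chr1:164935523-164935772, minus strand: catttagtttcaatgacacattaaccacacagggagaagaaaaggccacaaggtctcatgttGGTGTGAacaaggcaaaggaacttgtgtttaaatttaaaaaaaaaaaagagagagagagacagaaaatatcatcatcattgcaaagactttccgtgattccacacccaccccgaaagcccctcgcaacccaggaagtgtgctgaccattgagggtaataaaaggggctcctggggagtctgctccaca
Cxcl10, chr5:92348890-92349139, minus strand: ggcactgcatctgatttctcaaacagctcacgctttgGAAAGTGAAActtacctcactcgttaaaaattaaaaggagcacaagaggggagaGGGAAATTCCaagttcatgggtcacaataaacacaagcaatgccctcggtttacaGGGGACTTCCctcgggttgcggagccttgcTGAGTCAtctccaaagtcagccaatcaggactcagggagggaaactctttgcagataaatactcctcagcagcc

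The Ccl1 window held 1 pair of overlapping kappa B matches, 1 on each strand, from base -196 to -186 before the start. In Xcl1 there was 1 T-box core, at -188 to -182. Cxcl10 carried 1 interferon-stimulated response element (-213 to -204), 2 kappa B matches (-159 to -150 and -104 to -95) and 1 AP-1 match (-74 to -68). Ccl3 held none of these 6 motifs in this window. Of the 32851 promoter windows of the same length in the table, 3.33% held the T-box core, 5.85% the STAT6 site, 7.02% the gamma-activated site, 2.98% the response element, 6.75% the AP-1 site and 4.65% the kappa B site. Among the 6 members with an entry, 3 held a kappa B match, 1 each a T-box core, a response element and an AP-1 match, and 0 a STAT6 or gamma-activated site. A short NFAT core (GGAAA) was also searched and is not marked in capitals. It was found in 5 of the 6 members, beside 55.6% of all windows. In Ccl3 it lay at -59 to -55 and -34 to -30. A match is a run of letters, and no binding was measured.

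Ccl1 and Ccl4 were the most abundant of the 9 ligands in all 4 genotypes. Within each library the 9 FPKM values summed to 672 and 640.4 in WT, 391.7 and 376 in T-bet-null cells, 1575 and 1495 in STAT6-null cells, and 397 and 363 in double-null cells. This sum of 9 was highest in STAT6-null cells and lower than WT in both genotypes without T-bet. With the other chemokine ligand genes of the table added, Ccl20 above all, the sums were 761 and 727 FPKM in WT, 598 and 584 in T-bet-null cells, 1963 and 1966 in STAT6-null cells, and 1731 and 1813 in double-null cells, so that double-null cells then stood above WT. The Ccl1 transcript made up 45.5% ± 0.952 (mean ± SD, n = 2) of the sum in WT, 68.1% ± 0.570 in T-bet-null cells, 49.8% ± 2.92 in STAT6-null cells and 66.5% ± 3.40 in double-null cells. Ccl3 made up 11.2% ± 0.115, 6.77% ± 0.534, 13.5% ± 1.15 and 3.37% ± 0.365 in the same order. The least abundant members, Cxcl1, Cxcl16 and Ccl22, each stayed under 0.7% of the sum in all 8 libraries.

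**Figure D1:**
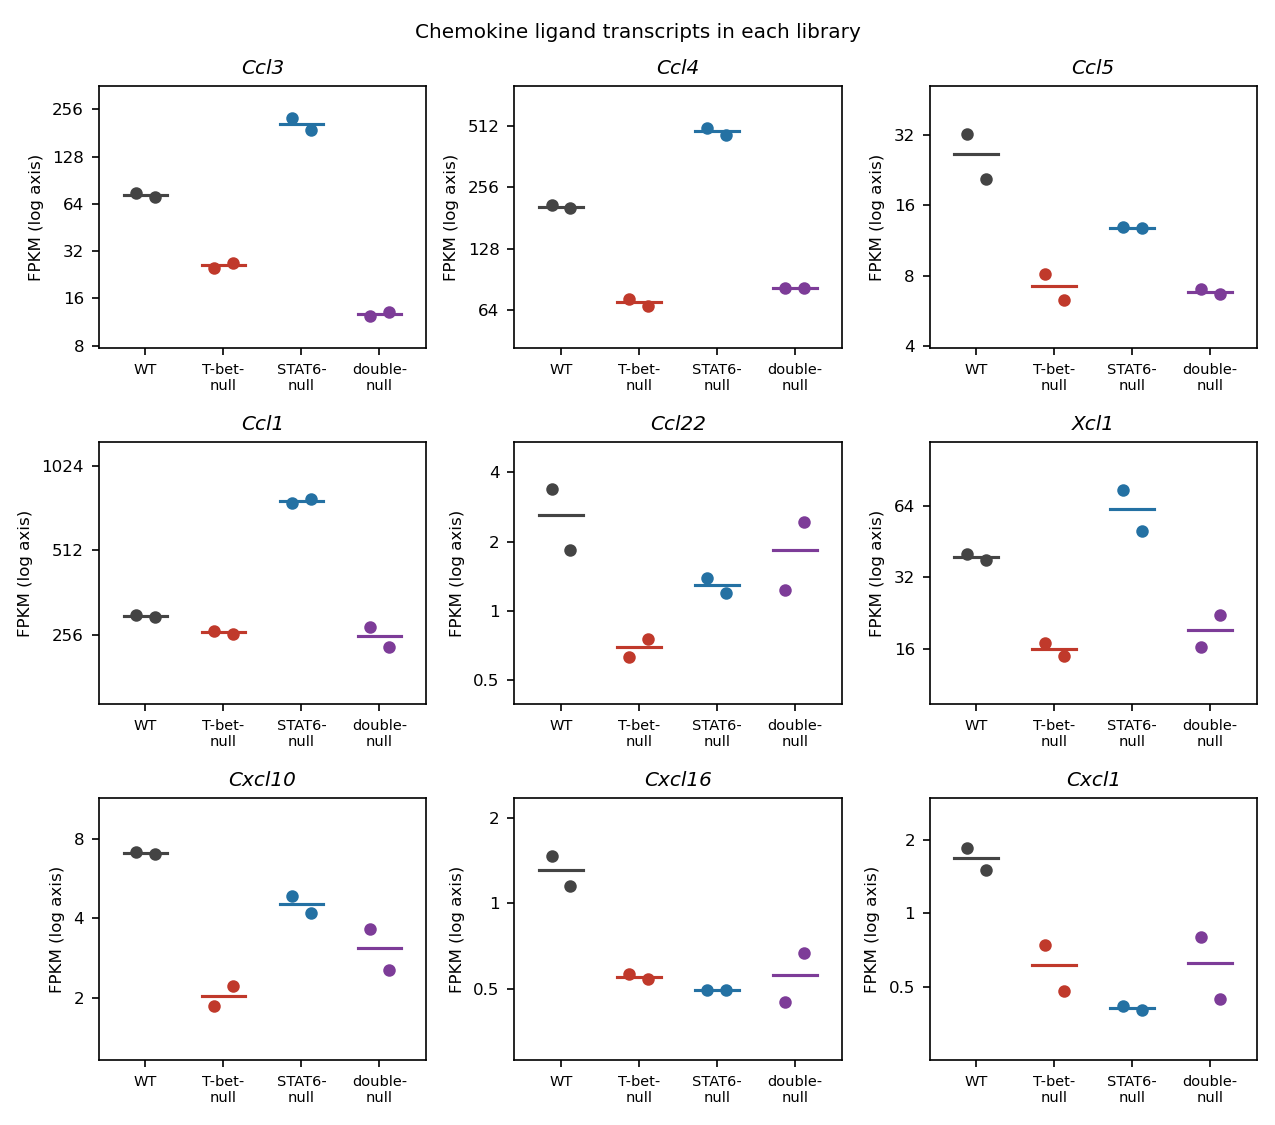
FPKM of each of the 9 chemokine ligand genes (log2 axis, a separate range per gene) by genotype. Points are the 2 libraries of a genotype and bars their mean. Ccl3, Ccl4, Ccl1 and Xcl1 peak in STAT6-null cells (208, 481, 764 and 62.3 FPKM), while the other 5 are highest in WT.

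Ccl3 and Ccl4 encode the inflammatory ligands MIP-1 alpha and MIP-1 beta, which draw monocytes and T cells, Ccl3 in part through CCR1. They are neighbours on mouse chromosome 11 (mm10, Ccl3 at 83647843-83649378; Ccl4 ends at 83664683). Ccl3 read 75.7 and 71.1 FPKM in WT, 25.0 and 26.9 in T-bet-null cells, 226 and 189.9 in STAT6-null cells, and 12.4 and 13.2 in double-null. No 2 genotypes overlapped, and the order was STAT6-null, WT, T-bet-null, double-null. Against WT, Ccl3 fell by 1.46 in T-bet-null cells (SE 0.0841, adjusted p = 1.37e-06) and by 2.43 in double-null cells (adjusted p = 6.42e-08), and rose by 1.48 in STAT6-null cells (adjusted p = 9.54e-07). The STAT6-null mean was 2.83 times the WT mean and 16.3 times the double-null mean.

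Ccl4 read 209 and 203 FPKM in WT, 72.7 and 66.5 in T-bet-null cells, 503 and 460.1 in STAT6-null cells, and 81.9 and 82.3 in double-null libraries. It too was highest in STAT6-null cells, but its lowest genotype was T-bet-null. Against WT it fell by 1.55 in T-bet-null (SE 0.0636, adjusted p = 2.43e-07) and by 1.32 in double-null cells (adjusted p = 3e-07), and rose by 1.22 in STAT6-null cells (adjusted p = 6.43e-07). Lacking T-bet as well as STAT6 put Ccl4 2.54 below STAT6-null cells (-2.54, adjusted p = 6.68e-08) and Ccl3 3.92 below (-3.92, adjusted p = 2.32e-08).

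Adding STAT6 loss to T-bet loss moved the neighbours in opposite directions. From T-bet-null to double-null, Ccl3 fell by 0.97 (adjusted p = 0.000103), and Ccl4 rose by 0.24 (adjusted p = 0.0223). The Ccl4 rise was called in 14 of 18 alternative analyses and not with quantile normalization (0.15, adjusted p = 0.0944), nor without T-bet-null replicate 2 (0.17, adjusted p = 0.177), double-null replicate 1 (0.24, adjusted p = 0.050002) or double-null replicate 2 (0.23, adjusted p = 0.0759). Within each library, Ccl3 FPKM over Ccl4 FPKM was 0.363 and 0.350 in WT, 0.345 and 0.405 in T-bet-null cells, 0.449 and 0.413 in STAT6-null cells, and 0.151 and 0.160 in double-null cells. The double-null libraries lay below the 6 others, whose ratios spread over a narrow range. The RefSeq gene model of Ccl4, which includes a predicted transcript, starts at 83648624, inside Ccl3, and overlaps part of it on the opposite strand, and no source used here gives the strandedness of the libraries, so fragments there could not be told apart.

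**Figure D2:**
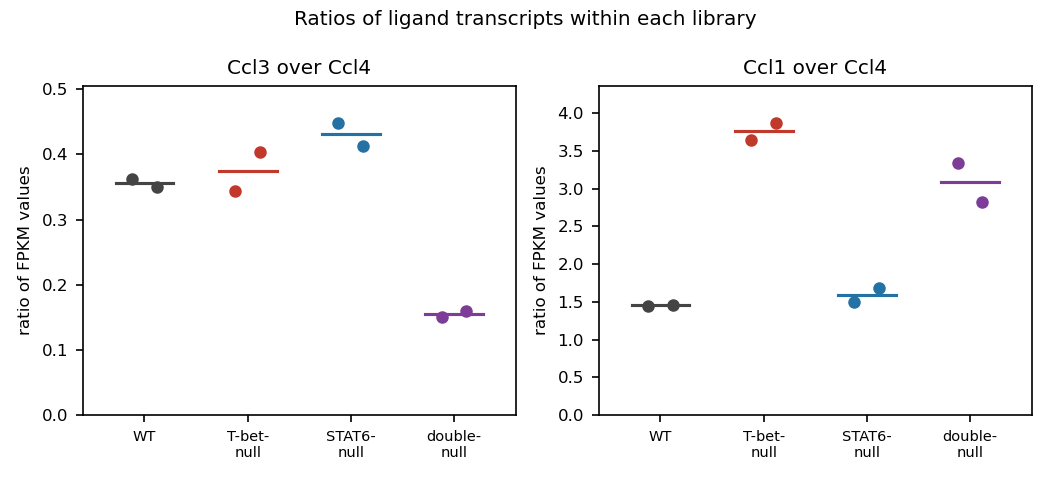
Ratio of FPKM values within each library, Ccl3 over Ccl4 (left) and Ccl1 over Ccl4 (right), on linear axes from 0. Points are libraries and bars genotype means; Ccl3 over Ccl4 is 0.156 in double-null cells beside 0.357 to 0.431 in the other genotypes, and Ccl1 over Ccl4 is 3.76 and 3.08 in the genotypes without T-bet beside 1.45 and 1.59.

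Ccl5 encodes RANTES, which attracts T cells, eosinophils and monocytes through receptors that include CCR3 and CCR1 (chr 11, 83525778-83530518). Its values were 32.2 and 20.6 FPKM in WT, 8.15 and 6.30 in T-bet-null cells, 12.9 and 12.8 in STAT6-null cells, and 6.996 and 6.71 in double-null libraries. Each mutant library lay below both WT libraries, which themselves differed 1.56-fold. Against WT, Ccl5 fell by 1.71 in T-bet-null cells (SE 0.176, adjusted p = 3.21e-05), by 0.95 in STAT6-null (adjusted p = 0.00107) and by 1.77 in double-null cells (adjusted p = 2e-05). Unlike Ccl3 and Ccl4, Ccl5 was lower in STAT6-null cells than in WT, where both of those were higher. T-bet-null and double-null libraries overlapped (-0.06, 95% interval -0.46 to 0.34, adjusted p = 0.831). STAT6-null cells kept more Ccl5 than double-null cells, which stood 0.82 lower (-0.82, adjusted p = 0.0133); this call was lost without STAT6-null replicate 1 or 2 or double-null replicate 2, with adjusted p from 0.00114 to 0.078 over 18 alternatives.

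Ccl1, a ligand of CCR8 that attracts type 2 and regulatory T cells (chr 11, 82176666-82179812), was the most abundant of the 9. It stood at 302 and 296 FPKM in WT, 265 and 258 in T-bet-null cells, 752 and 776 in STAT6-null cells, and 274 and 233 in double-null libraries. The STAT6-null libraries were far above the 6 others, which lay between 233 and 302 FPKM. In STAT6-null cells Ccl1 rose by 1.35 over WT (SE 0.0755, adjusted p = 8.82e-07), which is 2.56 times the WT mean. Double-null cells stood 1.59 below STAT6-null cells (-1.59, adjusted p = 4.13e-06) and did not differ from T-bet-null cells by the test (-0.05, 95% interval -0.22 to 0.12, adjusted p = 0.641). The small differences of T-bet-null (-0.19, adjusted p = 0.0456) and double-null cells (-0.24, adjusted p = 0.0165) from WT were called but not stable: the first was lost in 9 of 18 alternatives, among them both other scalings (adjusted p from 0.00761 to 0.183 over all 18), and the second in 3 of 18 (adjusted p from 0.000912 to 0.0912), without WT replicate 1, without double-null replicate 2 and with only these genotypes in the fit.

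Ccl22 encodes MDC, a CCR4 ligand that attracts Th2 and regulatory T cells and is abundant in mature dendritic cells (chr 8, 94745684-94751388). It was low throughout, at 3.39 and 1.84 FPKM in WT, 0.629 and 0.757 in T-bet-null cells, 1.39 and 1.20 in STAT6-null cells, and 1.23 and 2.44 in double-null libraries. Only the T-bet-null libraries lay below all 6 others, and the double-null libraries overlapped those of WT and STAT6-null. Its FPKM values were whole multiples of a common step (largest distance 0.00116 of a step), taken as the value of 1 fragment, and gave 126 and 71 in WT, 20 and 27 in T-bet-null cells, 50 and 45 in STAT6-null cells, and 43 and 94 in double-null libraries. The 2 libraries of WT, and the 2 of double-null, thus differed in Ccl22 by more than their depth (0.940 and 1.04 relative to WT replicate 1 in double-null).

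Against WT, Ccl22 fell by 1.06 in T-bet-null cells (SE 0.227, adjusted p = 0.00261). The fall of 0.62 in STAT6-null cells (adjusted p = 0.0337) was lost in 5 of 17 alternatives (adjusted p from 0.00775 to 0.264), most plainly without WT replicate 1 (-0.31, adjusted p = 0.264). Double-null cells gave -0.35 (95% interval -0.87 to 0.16, adjusted p = 0.19), a call gained without WT replicate 2 (-0.67, adjusted p = 0.0315) and without double-null replicate 2 (-0.66, adjusted p = 0.0276). Double-null exceeded T-bet-null cells by 0.71 (adjusted p = 0.0415), which was lost in 6 of 17 alternatives (adjusted p from 0.0115 to 0.245), among them the fit with the replicate number as a block (adjusted p = 0.0629). Fscn1, an actin-bundling protein abundant in mature dendritic cells, had the profile most like that of Ccl22 (r = 0.980 over the 8 libraries). Fscn1 stood at 5.26 and 3.36 FPKM in WT and 1.07 and 1.24 in T-bet-null cells. In STAT6-null cells it read 2.66 and 2.19, and in double-null libraries 2.60 and 4.33. It differed between replicates in the same direction as Ccl22 in all 4 genotypes. Because Fscn1 was picked by its r over these same libraries, that sameness is no separate result. Zbtb46, another dendritic cell marker, differed the other way in T-bet-null (0.744 and 0.529 FPKM) and double-null libraries (0.827 and 0.711). In STAT6-null libraries (1.28 and 1.23) Zbtb46 went the same way as Ccl22, and in WT it was near level (2.00 and 2.01). The other myeloid and dendritic markers listed that had values rose from double-null replicate 1 to 2, as Ccl22 did. These were Lyz2 (6.52 and 10.02 FPKM), Cd68 (3.94 and 5.69), Fcer1g (0.202 and 0.640), Ctss (43.1 and 49.4), Cd14 (0.463 and 0.548) and Xcr1 (2.41 and 2.54). In each of the other genotypes some of them went with Ccl22 and others against it. The part of other cells in the Ccl22 values was not tested.

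Xcl1, lymphotactin, attracts the XCR1-bearing dendritic cells that cross-present antigen (chr 1, 164931644-164935522). Its values were 40.1 and 38.0 FPKM in WT, 17.0 and 15.0 in T-bet-null cells, 74.4 and 50.3 in STAT6-null cells, and 16.3 and 22.2 in double-null libraries. The STAT6-null libraries were the highest, and those without T-bet overlapped each other below WT. Against WT, Xcl1 fell by 1.24 in T-bet-null (SE 0.180, adjusted p = 0.000266) and by 1.00 in double-null cells (adjusted p = 0.00084). The rise of 0.63 in STAT6-null cells (adjusted p = 0.0111) was lost without WT replicate 2 (0.60, adjusted p = 0.0576) and without STAT6-null replicate 1 (0.36, adjusted p = 0.084), the STAT6-null library with the higher value; over 18 alternatives its adjusted p ran from 0.00172 to 0.084. Double-null cells were 1.64 below STAT6-null cells (-1.64, adjusted p = 0.000541).

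Cxcl10 encodes IP-10, an interferon-induced ligand of CXCR3 that draws Th1 cells (chr 5, 92346638-92348889). It stood at 7.14 and 7.01 FPKM in WT, 1.86 and 2.21 in T-bet-null cells, 4.87 and 4.21 in STAT6-null cells, and 3.64 and 2.55 in double-null libraries. The genotypes did not overlap, in the order WT, STAT6-null, double-null, T-bet-null. These are 148 and 151, 33 and 44, 98 and 88, and 71 and 55 fragments. Against WT, Cxcl10 fell by 1.41 in T-bet-null (SE 0.126, adjusted p = 1.38e-05), by 0.55 in STAT6-null (adjusted p = 0.00388) and by 0.99 in double-null cells (adjusted p = 9.74e-05). Double-null cells were 0.42 above T-bet-null cells (adjusted p = 0.0327) and 0.44 below STAT6-null cells (-0.44, adjusted p = 0.0388). Of 21 interferon response genes tested, 18 were called lower than WT and 1 higher in T-bet-null cells, beside 36.3% and 34.2% of all genes tested. In STAT6-null cells 7 were called lower and 7 higher (36.1% and 34.9% of all genes; median -0.04), and in double-null cells 18 lower and 2 higher (36.7% and 36.3%). The part of the interferon response in the Cxcl10 values was not tested. Neither call between double-null and single-mutant cells was stable: the first was lost in 4 of 18 alternatives (adjusted p from 0.0085 to 0.16) and the second in 8 of 18 (adjusted p from 0.00789 to 0.208).

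Cxcl16, made as a membrane-bound ligand of CXCR6 that ADAM10 sheds (chr 11, 70454389-70459984), was at 1.47 and 1.15 FPKM in WT, 0.564 and 0.542 in T-bet-null cells, 0.497 and 0.497 in STAT6-null cells, and 0.452 and 0.669 in double-null libraries. Both WT libraries were above the 6 mutant libraries, among which double-null overlapped the others. The fragments numbered 76 and 62, 25 and 27, 25 and 26, and 22 and 36. Cxcl16 fell by 0.57 in T-bet-null (SE 0.102, adjusted p = 0.000936), 0.62 in STAT6-null (adjusted p = 0.00051) and 0.57 in double-null cells (adjusted p = 0.000841). Zmynd15 overlaps the 5′ end of Cxcl16 in the annotation, so reads there could belong to either gene.

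Cxcl1, a neutrophil-attracting ligand of CXCR2 (chr 5, 90891245-90893121), was the least abundant member in the STAT6-null libraries. It stood at 1.86 and 1.51 FPKM in WT, 0.745 and 0.483 in T-bet-null cells, 0.418 and 0.402 in STAT6-null cells, and 0.802 and 0.447 in double-null libraries, from 32 and 27, 11 and 8, 7 and 7, and 13 and 8 fragments. The WT libraries were above all mutant libraries, and T-bet-null and double-null libraries overlapped. Cxcl1 fell by 0.73 in T-bet-null (SE 0.129, adjusted p = 0.000845), 0.92 in STAT6-null (adjusted p = 0.000192) and 0.73 in double-null cells (adjusted p = 0.000767). Per depth, STAT6-null cells had 0.676 times the Cxcl1 fragments of T-bet-null cells (95% exact interval 0.314 to 1.42, counting error only), so a difference among the mutants was not detectable at this depth.

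For these low genes the scale compresses the change. With a pseudocount of 0.1 in place of 1, the STAT6-null difference from WT was -1.80 for Cxcl1 and -1.23 for Cxcl16. Cxcl1 and Cxcl16 reached 1 FPKM in the WT libraries alone, and so passed the filter of 1 FPKM in 2 libraries only through the genotype in which they were highest. Passing in that way meant that they had to be higher in WT, so the counts against WT are also given without them.

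In T-bet-null cells 9 of the 9 ligands were called lower than WT and 0 higher, with a median difference of -1.24 beside -0.02 over all genes. Of all 10281 genes tested, 36.3% were called lower and 34.2% higher in that comparison. In STAT6-null cells 4 were called higher (Ccl1, Ccl3, Ccl4 and Xcl1; background 34.9%) and 5 lower (background 36.1%). In double-null cells 8 were called lower than WT (background 36.7%) and 0 higher (36.3%; 73.0% in either direction), with a median of -0.99 beside 0.00. Apart from Cxcl1 and Cxcl16, 7 of 7, 3 of 7 and 6 of 7 were called lower in these 3 mutants. Against STAT6-null cells, 6 of the 9 were called lower in double-null cells (background 8.63%) and 0 higher (11.3%; 19.9% in either direction): Ccl1, Ccl3, Ccl4, Ccl5, Cxcl10 and Xcl1. Against T-bet-null cells, 3 were called higher (Ccl4, Ccl22 and Cxcl10; background 16.4%) and 1 lower (Ccl3; background 16.2%). Between the single mutants, 6 were called higher in STAT6-null than in T-bet-null cells (background 12.3%) and 0 lower (14.9%), the largest for Ccl3 (2.95) and Ccl4 (2.77). Some of the calls counted here were lost under alternatives. Against WT these were Ccl1 in both genotypes without T-bet, and Ccl22 and Xcl1 in STAT6-null cells. For double-null cells they were Ccl5 and Cxcl10 against STAT6-null, and all 3 higher calls against T-bet-null cells. Between the single mutants Ccl5 was lost in 3 of 18. The 9 were chosen with earlier results of these data known, so these counts beside the shares of all genes are descriptions and no test of the set. Of 3 other chemokine ligand genes tested, 2 were called higher than WT and 0 lower in T-bet-null cells. In these bulk samples fewer cells that make a ligand and less RNA per cell cannot be told apart.

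**Figure D3:**
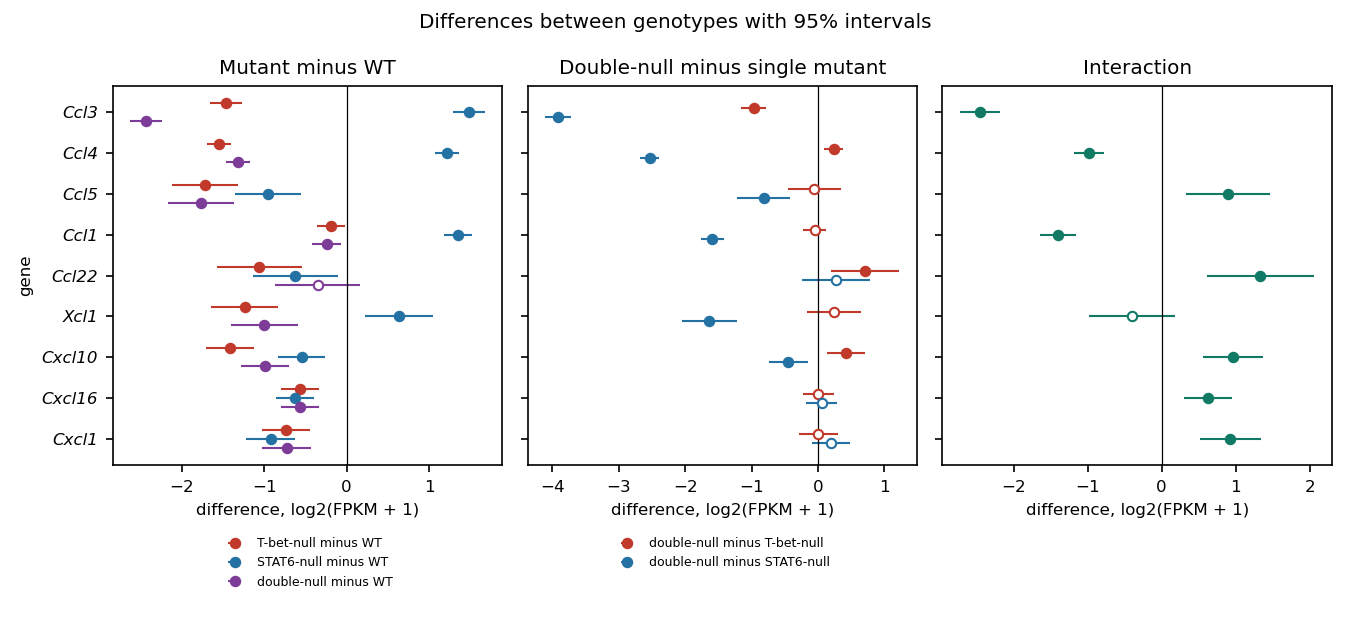
Differences on the log2(FPKM + 1) scale with 95% intervals from limma for the 9 genes: each mutant minus WT (left), double-null minus each single mutant (middle) and the interaction (right). Filled points are called at an adjusted p under 0.05; Ccl3, Ccl4, Ccl1 and Xcl1 lie right of 0 in the left panel in STAT6-null cells only.

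Did STAT6 loss change the ligands alike with and without T-bet? The interaction subtracts the STAT6-null minus WT difference from the double-null minus T-bet-null difference, and 57.3% of all genes tested were called in it (29.6% positive and 27.7% negative), so the 8 of 9 ligands called stand beside a high background. WT enters the interaction, so for Cxcl1 and Cxcl16 the filter favours a positive value, and without them 6 of 7 were called. It was negative for Ccl3 (-2.45, SE 0.119, adjusted p = 4.86e-06), Ccl1 (-1.40, adjusted p = 2.31e-05) and Ccl4 (-0.98, adjusted p = 5.28e-05). Ccl3 went from a rise of 1.48 with T-bet to a fall of 0.97 without it. Xcl1 gave -0.40 (95% interval -0.97 to 0.18, adjusted p = 0.208), and this became a call without STAT6-null replicate 2 (-0.68, adjusted p = 0.0285). It was positive for Ccl22 (1.33, adjusted p = 0.00681), Cxcl10 (0.97, adjusted p = 0.00178), Cxcl1 (0.93, adjusted p = 0.00246), Ccl5 (0.90, adjusted p = 0.0134) and Cxcl16 (0.62, adjusted p = 0.0055). Those 5 are the ligands that were lower in STAT6-null cells than in WT, and the same WT libraries enter both quantities.

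Of 32 other chemokine ligand genes listed, 7 had a line and 3 could be tested. Ccl20, which draws CCR6-bearing cells into skin, stood at 78.2 and 73.3 FPKM in WT, 178 and 178 in T-bet-null cells, 371 and 452 in STAT6-null cells, and 1313 and 1424 in double-null libraries. Its order over the genotypes thus differed from that of all 9 members. Cxcl2, a CXCR2 ligand like Cxcl1, rose in the 3 mutants (1.37, 0.59 and 1.01 in T-bet-null, then STAT6-null, then double-null cells), where Cxcl1 fell. Ccl27a, at 0.799 to 2.06 FPKM, gave -0.19 in T-bet-null cells (adjusted p = 0.228), 0.33 in STAT6-null cells (adjusted p = 0.0497) and 0.34 in double-null cells (adjusted p = 0.0434).

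Of the receptors of these ligands, 8 are described. Some calls went in the direction opposite to a ligand of the receptor and others in the same direction. Ccr8, the receptor of CCL1, stood at 445 and 475 FPKM in WT, 265 and 246 in T-bet-null cells, 188 and 177 in STAT6-null cells, and 95.01 and 104 in double-null libraries. It fell by 1.33 in STAT6-null cells (adjusted p = 6.15e-07), where Ccl1 rose by 1.35. In double-null cells Ccr8 fell by 2.20 (adjusted p = 4.82e-08), where Ccl1 fell by 0.24.

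Cxcr3, the Th1 receptor of CXCL10, fell by 3.77 in T-bet-null cells, fell by 2.80 in double-null cells and rose by 1.10 in STAT6-null cells. Cxcl10 fell in all 3 mutants, so only the STAT6-null calls were opposite. Ccr4, the receptor of CCL22, rose by 1.31 in T-bet-null cells, where Ccl22 fell, and fell by 0.60 in STAT6-null cells, where Ccl22 also fell. Cxcr6, the receptor of CXCL16, rose in the 3 mutants (0.95, 1.35 and 1.43), in each of which Cxcl16 fell. Xcr1, a receptor known from dendritic cells, was at 5.05 and 5.55 FPKM in WT and 1.96 to 2.54 in the mutants. The low receptors Ccr1 (1.15 to 3.98 FPKM) and Ccr3 (1.06 to 5.45 FPKM) rose in every mutant against WT, and Cxcr2 (1.98 to 3.06 FPKM) rose in T-bet-null cells alone (0.38, adjusted p = 0.0017). Among the 17 chemokine receptor genes with a test, 8 were above WT and 9 below it by the test in T-bet-null cells. The counts were 6 and 8 in STAT6-null and 7 and 9 in double-null cells, with medians of -0.38, 0.06 and -0.47 beside -0.02, -0.01 and 0.00 over all genes. Of all genes tested, 34.2% were higher and 36.3% lower than WT in T-bet-null, 34.9% and 36.1% in STAT6-null, and 36.3% and 36.7% in double-null cells.

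**Figure D4:**
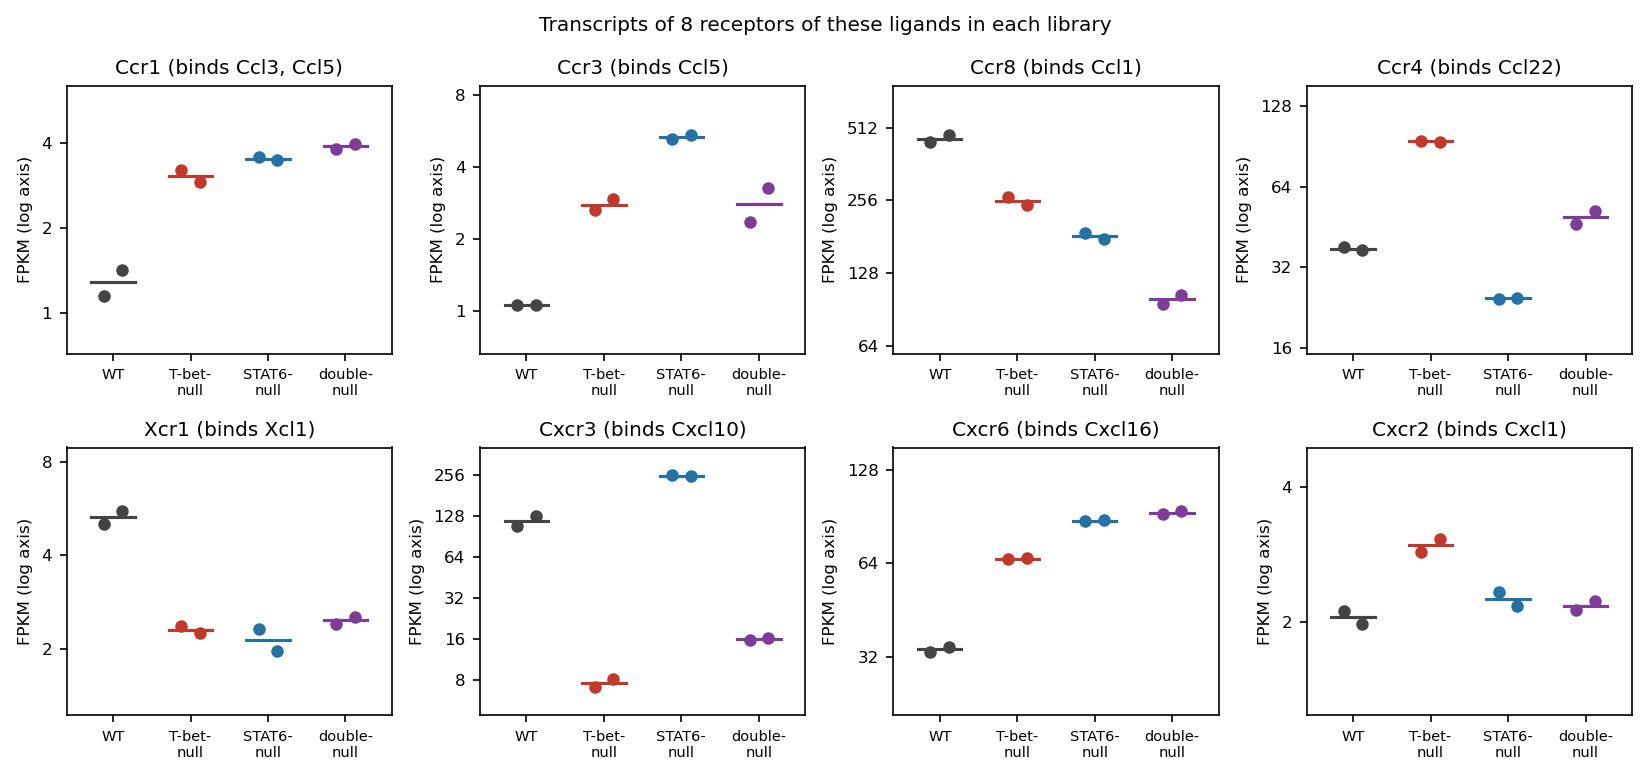
FPKM of 8 receptor genes that bind these ligands (log2 axis, a separate range per gene) by genotype, with the ligands in brackets. Points are libraries and bars means; Ccr8 falls from 460.2 FPKM in WT to 99.6 in double-null cells, and Cxcr6 is lowest in WT (33.8).

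The genes whose profile over the 8 libraries was most like that of a member were taken from 1703 or 1704 genes whose genotype means ranged over at least 1 on the log2 scale; these correlations are descriptions over 8 libraries that share genotypes. Ccl4 ran closest to Iigp1 (r = 0.990), Tbx21 (r = 0.989) and Gbp7 (r = 0.985), and Ccl3 to Csf2 (r = 0.981), Iigp1 (r = 0.974) and Ifng (r = 0.972). Tbx21 is itself the gene targeted in the libraries labelled T-bet-/-, so its profile is set in part by the design. Ccl1 ran closest to the actin-severing gene Scin (r = 0.990), Xcl1 to Ccl4 (r = 0.974), Ccl5 to Wnt10a (r = 0.981) and Cxcl10 to Irgm2 (r = 0.958). Cxcl16 and Cxcl1, both high in WT alone, ran closest to H2afv (r = 0.994) and Hdac10 (r = 0.985).

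Markers of other cells moved with some of these results. Of 16 myeloid and dendritic markers, 7 had values, and their sum was 129 to 130.2 FPKM in WT, 60.04 to 62.02 in T-bet-null, 81.2 to 82.1 in STAT6-null and 57.5 to 69.5 in double-null cells. Most of that sum was Ctss, at 43.1 to 110 FPKM, which T cells may also make. Other markers of the list did not follow it in STAT6-null cells. The macrophage lysozyme Lyz2 stood at 12.2 and 7.85 FPKM in WT, 2.49 and 3.59 in T-bet-null cells, 13.1 and 13.6 in STAT6-null cells, and 6.52 and 10.02 in double-null cells. The macrophage marker Cd68 rose over WT in STAT6-null cells (0.67, adjusted p = 0.0021) and in double-null cells (0.45, adjusted p = 0.0157). Of 6 myeloid and dendritic markers tested, 4 were called lower in each mutant, and 0, 1 and 1 higher. The shares over all genes were 36.1% to 36.7% lower and 34.2% to 36.3% higher in the 3 comparisons with WT. The 2 erythroid markers summed to 442 and 224 FPKM in the WT libraries and to 2.63 to 7.48 in the mutants. B cell markers (7 of 10 with values) summed to 2.47 to 8.86 FPKM over the 8 libraries, and the CD8 marker Cd8b1 lay at 3.02 to 5.60. The stroma and endothelium list (2 of 9) summed to 24.2 and 26.0 FPKM in WT and 8.15 to 11.3 in the mutants. Nearly all of that sum was Pecam1 (7.57 to 25.8 FPKM). Col1a1, the other gene with a value, went the opposite way, at 0.222 and 0.223 FPKM in WT and 0.381 to 0.993 in the mutants. It was too low to be tested. The NK and innate-like list (2 of 8) summed to 0.761 to 1.56 FPKM. The mast cell and basophil list (2 of 9) summed to 9.52 to 64.04 FPKM, highest in double-null cells. Nearly all of it was Kit (8.11 to 62.9 FPKM), while Hdc stayed at 0.927 to 1.41. The keratinocyte list (4 of 8) summed to 11.4 to 58.1 FPKM, lowest in WT. Most of it was Perp (8.34 to 52.2 FPKM), and Dsp also rose in each mutant. Sfn fell by 0.76 in T-bet-null and 0.79 in double-null cells and rose by 0.93 in STAT6-null cells. No marker with a value was listed at 0, since the table holds none under 0.1 FPKM. The part of these cells in the lower Ccl5, Ccl22, Cxcl1, Cxcl10 and Cxcl16 of the mutants was not tested.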

How the data were processed

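The values analysed are FPKM, deposited by the authors in 1 table with 1 column per library. Cufflinks and build mm10 are named in the submitters' processing notes, and RefSeq in the table's own name. The aligner and versions were not stated. For 43 symbols with more than 1 line, that of the highest mean entered (65 lines set aside; no member was affected), and 17 lines named as dates were kept unnamed. Genes with at least 1 FPKM in at least 2 libraries were tested on log2(FPKM + 1) with limma 3.58.1 in R 4.3.3, in 1 fit of 8 libraries with 4 residual degrees of freedom and an intensity trend. Tests were two-sided, over 7 comparisons, and checked on simulated data. The tables of levels were made with Python 3.11.15 and pandas 2.3.3.

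Depth is not printed in the table. From whole-number steps of 503 genes under 0.5 FPKM (tolerance 0.001, log2), libraries had 0.856 to 1.04 times the depth of WT replicate 1. In 4 members every library lay within 0.05 of a whole step. Their steps and longest coding transcripts (GENCODE M21) put WT replicate 1 at about 15.3 to 19.2 in units of 1000 x 1000 fragments. No count test was run, because many genes gave no whole steps. Fragment intervals are exact (Clopper-Pearson) and hold counting error only.

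The members, gene lists, receptor pairs and alternatives were chosen with earlier results of these data known. Named were all members, 8 of their receptors (1 other is not reported here), the other ligands, marker and response lists by count with at most 3 called genes of the largest change each, and the 3 genes most alike by r. Motifs and their windows were chosen after the data were seen. Alternatives were 2 pseudocounts, 2 filters, 2 scalings, no trend, a replicate block, summed lines, fits of the compared genotypes alone, and leaving out each library. Replicate numbers are taken from the labels, which do not tie them to shared animals or days.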

Additional observations from a re-analysis of the deposited data

Results flagged for a closer look

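For 8 of the 9 ligands the effect of STAT6 loss differed between cells with and without T-bet by the interaction term of limma, in a comparison where 57.3% of all genes tested were called. The values on the log2(FPKM + 1) scale were -1.40 for Ccl1, -2.45 for Ccl3, -0.98 for Ccl4, 0.90 for Ccl5, 1.33 for Ccl22, 0.93 for Cxcl1, 0.97 for Cxcl10 and 0.62 for Cxcl16. The interaction holds the WT libraries, which stood apart from all mutants. Cxcl1 and Cxcl16 passed the filter on low values only through WT, which favours a positive value for them, and without these genes 6 of 7 were called. Groups of 2 libraries were too small for a check of single libraries that lie far from the rest.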

How the results depend on the processing

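The 63 differences of the members (9 genes in 7 comparisons) were recomputed 1070 times under the alternatives. The call stayed the same 1019 times, was lost 47 times and gained 4 times, and no called value changed sign; 50 of the 63 kept their call under every alternative run. All values of Ccl3, and those of Ccl4 other than in double-null against T-bet-null cells, kept their call. Leaving out 1 library moved some counts by over 1.5 times. Double-null against T-bet-null cells then gave 1631 to 3308 genes in place of 3351, and 1 to 4 ligands in place of 4. Double-null against STAT6-null cells gave 840 to 2074 genes in place of 2044 (lowest without STAT6-null replicate 1). STAT6-null against T-bet-null cells gave 1443 to 3084 genes in place of 2799 (lowest without T-bet-null replicate 2). Ligands called in double-null cells against WT numbered 5 to 8 in place of 8, lowest without WT replicate 1. Without either WT library Cxcl1 and Cxcl16 no longer passed the filter, so only 7 ligands were tested. At a filter of 5 FPKM 6 ligands were tested, and 5 were called in the interaction in place of 8. A lone library left in a genotype is assumed to vary like the others.

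With the replicate block, 7151 genes were called in T-bet-null cells against WT in place of 7255, and 3091 in double-null against T-bet-null cells in place of 3351. For the members the block cost the Ccl22 calls of STAT6-null cells against WT (adjusted p = 0.0512) and of double-null against T-bet-null cells (adjusted p = 0.0629). Same-numbered libraries did not deviate together: the r of replicate differences between genotypes ran from -0.0899 to 0.0907 across genes. No scaling moved the median of all genes by over 0.1. Depth limits the low members most, with 7 to 32 fragments of Cxcl1 per library.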

Other observations

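Of all genes tested, 34.2% were called higher and 36.3% lower than WT in T-bet-null cells, 34.9% and 36.1% in STAT6-null cells, and 36.3% and 36.7% in double-null cells, and the counts of gene lists below stand beside these shares. Of 17 early targets of calcium and NFAT signalling, 5 were called higher and 10 lower in cells without T-bet alone than in WT, 6 and 8 in cells without STAT6 alone, and 5 and 9 in double-null cells, with medians of -0.34, -0.17 and -0.33 beside -0.02, -0.01 and 0.00 over all genes. The largest changes were those of the cytokines Ifng, which fell by 5.06 in T-bet-null and fell by 5.99 in double-null cells, and Il4, which rose by 3.81, 3.09 and 2.31 in the same order of mutants. Of 13 early NF-kB targets, 1 was called higher and 6 lower in T-bet-null, and 5 higher and 4 lower in each of STAT6-null and double-null cells, shares near those of all genes in the last 2. Interferon response genes (21 tested) were called lower 18 times in T-bet-null, 7 times in STAT6-null and 18 times in double-null cells, and higher 1, 7 and 2 times. Iigp1, an interferon-inducible GTPase, fell by 1.74 in T-bet-null and fell by 1.81 in double-null cells and rose by 1.29 in STAT6-null cells. The summed level of the interferon list was 574 to 581 FPKM in WT, 287 to 289 in T-bet-null, 700.3 to 724 in STAT6-null and 373 to 402 in double-null cells. Cytotoxic effector genes (10 tested) were called higher 1, 4 and 4 times and lower 7, 5 and 6 times in the same order of mutants; Gzmb, granzyme B, rose by 3.29 in STAT6-null cells and by 3.40 in double-null cells, and Nkg7 fell by 1.83 in T-bet-null and fell by 3.17 in double-null cells.

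Genes that act on chemokines after transcription also differed, and all 5 with a value are named here, a choice made after their values were seen. Srgn, the granule proteoglycan serglycin that can hold chemokines for release, rose by 0.22, 0.59 and 0.61 in T-bet-null cells, STAT6-null cells and those without both. Furin, a convertase, rose in all 3 (0.70, 0.93 and 1.44), as did Adam10, the sheddase of CXCL16 (0.45, 0.47 and 0.42). Dpp4, the peptidase that trims CXCL10 and other chemokines, fell by 0.22, 0.91 and 0.78, and Adam17 by 0.63, 0.38 and 0.49. Of these 5 genes, 3 were called higher and 2 lower in each mutant.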
